A study of Homo sapiens with 18 samples.

Results

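The genes described here encode the oxygen-sensing system of the cell: the HIF subunits HIF1A, EPAS1, HIF3A, ARNT and ARNT2, the prolyl hydroxylases EGLN1, EGLN2 and EGLN3, the asparaginyl hydroxylase HIF1AN, and VHL. They were chosen by symbol, as 10 of the 28277 genes in the deposited count table, and all 10 were found. RNA-seq had been made from OVCAR3-KRAB clonal cells, which are cells of the ovarian cancer line OVCAR3 that stably express dCas9-KRAB, a catalytically dead Cas9 fused to the KRAB repressor, after lentiviral transduction. Cells carried a control guide directed at a Gal4 promoter (sgControl in the labels, sgCtl here) or 1 of 2 guides directed at the promoter of XIST, sgXIST7 and sgXIST9, and were grown in normoxia or in a chamber with 1% oxygen for 24 h. Each of the 6 groups had 3 libraries, 18 in all, and every group carried dCas9-KRAB and a guide plasmid. Because monoclonal lines had been picked for XIST loss, the effect of a guide and the character of the clone that carried it cannot be told apart, and p-values measure the spread between libraries of one line.

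HIF is a pair of bHLH-PAS proteins, an oxygen-regulated alpha subunit (HIF1A, EPAS1, which is also called HIF2A, or HIF3A) and a stable beta subunit (ARNT or ARNT2). When oxygen is present, the EGLN enzymes hydroxylate prolines of the alpha subunit, VHL then binds it and brings it to a ubiquitin ligase, and HIF1AN hydroxylates an asparagine that blocks coactivator binding. These steps act on protein, which was not measured in these libraries. EGLN1 and EGLN3 are themselves known HIF targets, which makes the hydroxylases a negative feedback loop, and HIF alpha subunits drive glycolytic and angiogenic genes in ovarian and other carcinomas.

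HIF binds DNA at a core of ACGTG or GCGTG. The 250 bases before the RefSeq gene start (GRCh38.p14) were searched for both cores on both strands, and windows of 30 bases are shown for EGLN1, EPAS1 and HIF1A, the members with a match whose mRNA passed the test in some comparison, with the core in capitals. The windows lie at chr1:231422288-231422317 (minus strand) for EGLN1, chr2:46297278-46297307 (plus strand) for EPAS1 and chr14:61695297-61695326 (plus strand) for HIF1A.
EGLN1: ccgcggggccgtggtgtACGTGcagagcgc
EPAS1: gggcctgccggcGCGTGcccgcccacacac
HIF1A: tggctgagagcgGCGTGggctggggtgggg
The core began 13 bases before the RefSeq start in EGLN1, 117 bases before it in EPAS1 and 204 bases before it in HIF1A. In the deposited table the EGLN1 gene starts farther upstream, at 231425044 in place of 231422287, so that its window lies inside the deposited gene. A match is a description of the letters alone: 18.5% of 35116 promoters held ACGTG, 32.2% held GCGTG and 43.2% held either. HIF3A and EGLN2 also had matches, ARNT, EGLN3 and HIF1AN had none in this window, and ARNT2 and VHL were not searched.

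Library totals ranged from 11794375 to 24906936 counts with a median of 17629434, and 3 counts in a library corresponded to 0.13 to 0.266 CPM (counts scaled to library size by the trimmed mean of M values). The targeted lncRNA XIST was counted at 242 to 867 CPM in sgCtl normoxia and at 123 to 249 CPM in sgCtl hypoxia. It was at 0 to 0.259 CPM in the 6 sgXIST7 libraries and at 16.3 to 53.6 CPM in the 6 sgXIST9 libraries, so knockdown was deeper in the sgXIST7 clone. Of 10 markers of ovarian carcinoma epithelium, EPCAM (156 to 251 CPM) and KRT18 (129 to 251 CPM) were abundant, and KRT8 and PAX8 were lower. MUC16, KRT7, CDH1 and SOX17 had at most 4 counts in any library, WT1 had 0 to 14 and KRT19 had 0 to 8. Thus 6 of the 10 had at most 20 counts in any library. Markers of leukocytes, endothelium and fibroblasts summed to at most 3.19 CPM. In hypoxia, the deviations of replicate 3 from the group mean correlated between clones (sgCtl with sgXIST7 0.38, sgCtl with sgXIST9 0.566, sgXIST7 with sgXIST9 0.492). In the same order the values were 0.302, 0.197 and 0.294 for replicate 1 and 0.0182, 0.52 and -0.0676 for replicate 2. Deviations from one group mean depend on each other. In sgCtl hypoxia, replicate 3 correlated less with the other libraries of its group (0.9586) than these did with each other (0.9866). Results resting on hypoxia are therefore given with and without the 3 hypoxia libraries of replicate 3 where a member passed the test, or was called, in one case and not in the other.

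Of the 10 members, 8 passed the filter on low counts and were tested. A gene passed the test at an adjusted p under 0.01 (edgeR quasi-likelihood test, Benjamini-Hochberg over 14938 genes), and it was called where its log2 fold change also exceeded 1 in size. HIF3A, whose product is a weaker relative of the other alpha subunits, had at most 1 count in any library and 3 counts over all 18. EGLN2 had 0 to 8 counts per library, 67 in all. Of its 2217 exon bases, 2028 are also exons of the readthrough gene RAB4B-EGLN2, itself listed with 0 to 2 counts, so that how the counting treated shared reads could set both values and the EGLN2 level is uncertain. Neither gene was tested.

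On a scale that allows genes to be compared (RPKM, CPM per kilobase of exon), HIF1A was the most abundant alpha subunit throughout, at 42.5 to 186 RPKM. EPAS1 lay between 0.69 and 14.6 RPKM. ARNT and VHL lay close together, at 18.3 to 25.7 and 16.9 to 25.2 RPKM, and did not differ beyond their spread. ARNT2, the second beta subunit, was at 0.635 to 1.6 RPKM and made up 3.14% to 6.39% of the summed ARNT and ARNT2 level in the group means. EGLN1 ranged from 7.28 to 90.7 RPKM, HIF1AN from 4.81 to 9.47 and EGLN3 from 0.191 to 5.15. Within normoxia the mean levels of sgCtl cells ran HIF1A 57.3 ± 1.01 (SD, n = 3), VHL 22.7 ± 1.9, ARNT 20.9 ± 0.724, EGLN1 7.9 ± 0.593, HIF1AN 6.01 ± 0.437, EGLN3 1.49 ± 0.116, ARNT2 1.42 ± 0.161 and EPAS1 0.725 ± 0.0399 RPKM. VHL and ARNT, and EGLN3 and ARNT2, did not differ beyond their spread in that order. The order depends on the exon length used. By mean CPM in sgCtl normoxia, HIF1AN (77.7) lay above EGLN1 (56.1), and ARNT2 (9.29) above EGLN3 (4.03).

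**Figure D1:**
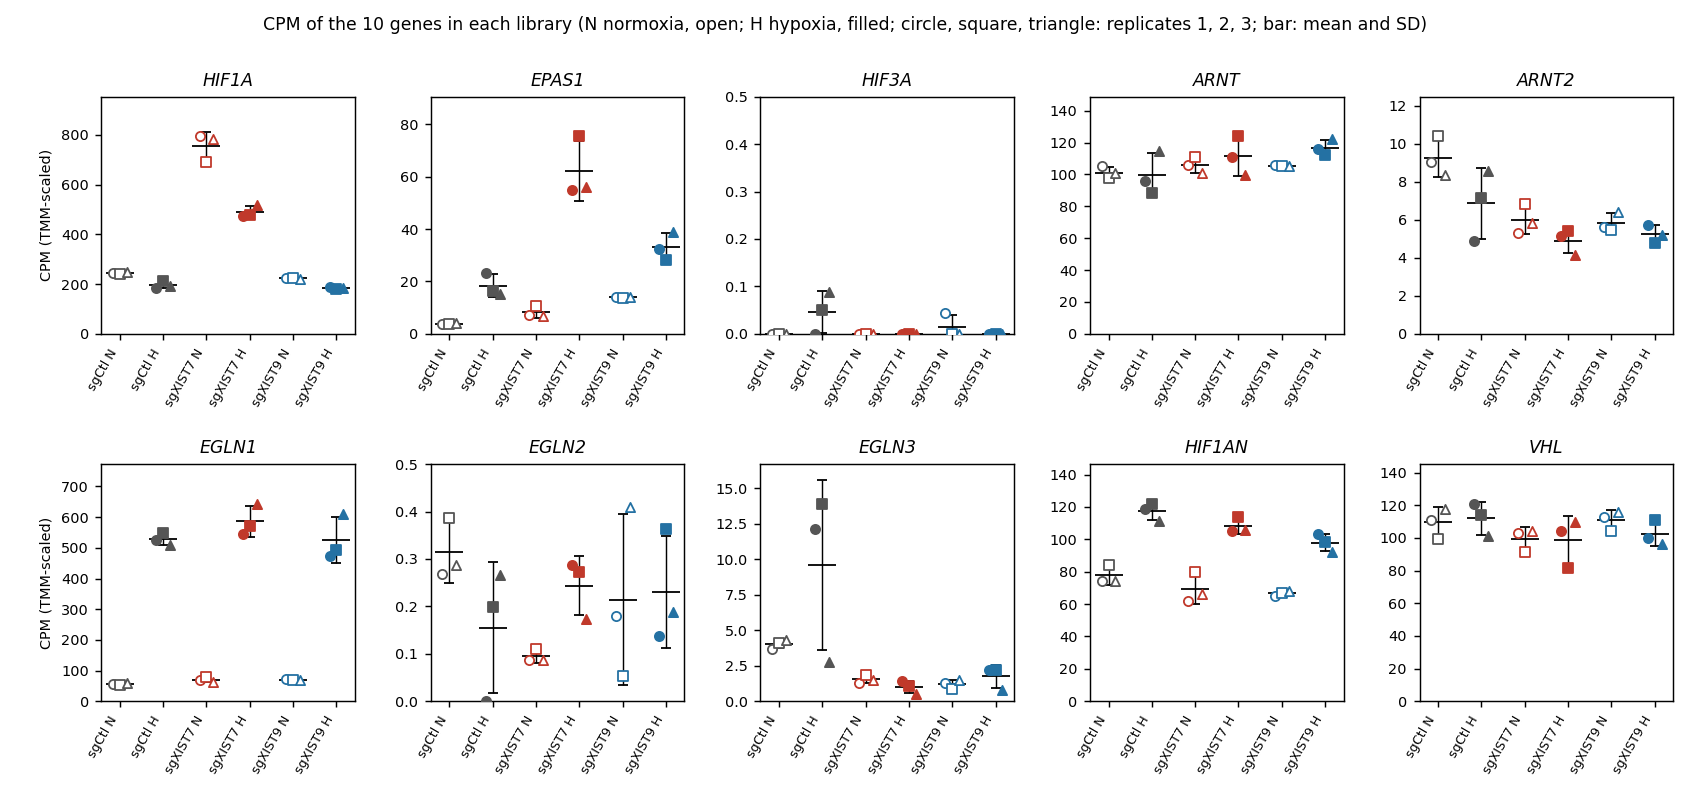
CPM of each of the 10 genes (y axis, linear, from 0, own scale per gene) in the 6 groups (x axis; N normoxia, H hypoxia), with 1 symbol per library, a bar at the mean and whiskers of 1 SD (n = 3). EGLN1 was high in all 9 hypoxia libraries, HIF1A was high in the 6 sgXIST7 libraries, and EGLN3 was above 10 CPM in 2 of 3 sgCtl hypoxia libraries alone; HIF3A and EGLN2 stayed under 0.5 CPM.

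The first question was how the system responded to hypoxia in each clone. EGLN1, EPAS1 and HIF1AN were up-regulated in all 3 clones, HIF1A was down-regulated in sgCtl and sgXIST7, and ARNT, ARNT2 and VHL did not pass the test in any clone. Of the 8 tested members, 4 passed the test in sgCtl (3 higher, 1 lower), 4 in sgXIST7 (3 higher, 1 lower) and 3 in sgXIST9 (all higher), where 37.6%, 46.7% and 42.1% of all tested genes did. EGLN1 and EPAS1, 2 of 8, were called in each clone, beside 19.7%, 27.3% and 23.3% of all tested genes. The median log2 fold change of the 8 members was 0.32, 0.03 and 0.35 in the 3 clones, and that of all genes was 0.02, 0.01 and 0.09.

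EGLN1, the main prolyl hydroxylase of HIF1A, had the strongest response among the members. In sgCtl it was at 56.5, 51.7 and 60 CPM in normoxia and at 526, 550 and 510 CPM in hypoxia. In sgXIST7 the values were 68.1, 79.8 and 62.9 CPM in normoxia and 546, 570 and 644 CPM in hypoxia, and in sgXIST9 they were 71.7, 69.2 and 67.9 against 474, 492 and 610 CPM. The lowest hypoxia library lay far above the highest normoxia library in each clone. The fitted log2 fold changes were 3.24 ± 0.12 (SE) in sgCtl, 3.06 ± 0.12 in sgXIST7 and 2.92 ± 0.12 in sgXIST9, that is 9.42-fold, 8.35-fold and 7.55-fold, with adjusted p of 1.7e-11, 1.9e-11 and 3.5e-11 (edgeR). The differences between clones in this response did not pass the test (sgXIST7 minus sgCtl -0.17 ± 0.16, adjusted p = 0.51; sgXIST9 minus sgCtl -0.32 ± 0.16, adjusted p = 0.27). In normoxia EGLN1 was 1.25-fold and 1.24-fold higher in sgXIST7 and sgXIST9 than in sgCtl, without overlap of the libraries, yet with adjusted p of 0.053 and 0.064 (edgeR).

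Over the 18 libraries, the genes whose log2 CPM followed EGLN1 most closely were BNIP3 (Pearson r = 0.995), a mitophagy receptor, PGK1 (r = 0.994), a glycolytic kinase, and FUT11 (r = 0.993), a fucosyltransferase. These r values are descriptions over 18 libraries that share the split into normoxia and hypoxia.

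EPAS1, the alpha subunit best known from endothelium and clear cell renal carcinoma, was up-regulated in hypoxia in all clones from different starting levels. In sgCtl its values were 3.69, 3.56 and 3.96 CPM in normoxia and 23.4, 16.4 and 15.3 CPM in hypoxia. In sgXIST7 they were 7.13, 10.5 and 6.88 CPM in normoxia and 55, 75.5 and 56.1 CPM in hypoxia. In sgXIST9 they were 14.1, 13.6 and 14.2 CPM in normoxia and 32.5, 28.2 and 39 CPM in hypoxia. No hypoxia library overlapped the normoxia libraries of its clone, and the sgXIST9 cells had the highest normoxia level but the sgXIST7 cells the highest hypoxia level. The log2 fold changes were 2.29 ± 0.21 in sgCtl, 2.93 ± 0.2 in sgXIST7 and 1.25 ± 0.19 in sgXIST9, with adjusted p of 2.2e-07, 3.8e-09 and 3.1e-05 (edgeR).

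The EPAS1 response was larger in sgXIST7 than in sgXIST9 by 1.69 ± 0.27 on the log2 scale (adjusted p = 0.006, edgeR), which was the one difference in response among the members past the test. Of all tested genes, 0.174% passed the test of this difference and 0.167% were called. The difference kept its direction but missed the threshold when any one of 8 of the 12 libraries involved was left out, as listed in the closing section; without the 3 hypoxia libraries of replicate 3 it was 1.9 ± 0.26 (adjusted p = 0.00062). Between sgXIST9 and sgCtl it was -1.05 ± 0.28 (adjusted p = 0.038), and without these 3 libraries -1.28 ± 0.28 (adjusted p = 0.0037). Leaving out sgCtl hypoxia replicate 3 alone gave -1.16 (adjusted p = 0.0099). Between sgXIST7 and sgCtl it was 0.64 ± 0.28 (adjusted p = 0.16). No member passed the test of the difference in response between sgXIST7 and sgCtl, where 2.17% of all genes passed and 1.52% were called, or between sgXIST9 and sgCtl, where 1.26% passed and 1.01% were called. At an unadjusted p under 0.05 there were 3 members in the first (EGLN3, HIF1A and EPAS1) and 1 in the second (EPAS1) by edgeR, and DESeq2 gave 0 and 1 past the test.

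HIF1A mRNA, in contrast, was down-regulated in sgCtl and sgXIST7 hypoxia. In sgCtl it was at 246, 241 and 249 CPM in normoxia and at 185, 213 and 193 CPM in hypoxia. In sgXIST7 it was at 795, 692 and 783 CPM in normoxia and 474, 478 and 519 CPM in hypoxia, and in sgXIST9 at 226, 223 and 219 CPM against 189, 182 and 183 CPM. Normoxia and hypoxia libraries did not overlap in any clone. The log2 fold changes were -0.32 ± 0.09 in sgCtl (adjusted p = 0.0052), -0.63 ± 0.09 in sgXIST7 (adjusted p = 8.4e-06) and -0.27 ± 0.09 in sgXIST9 (adjusted p = 0.013, not past the test; edgeR). The sgCtl value no longer passed the test without any one of 5 libraries: leaving out normoxia replicate 1, 2 or 3 gave -0.32, -0.34 or -0.31 (adjusted p = 0.017, 0.011 or 0.019), and leaving out hypoxia replicate 1 or 3 gave -0.27 or -0.3 (adjusted p = 0.033 or 0.012). It passed without hypoxia replicate 2 (-0.38, adjusted p = 0.0032) and without all 3 hypoxia libraries of replicate 3 (-0.3, adjusted p = 0.0087). The sgXIST9 value passed with DESeq2 (adjusted p = 0.00032). The sgXIST7 value passed the test under every alternative run (-0.69 to -0.59), and no HIF1A response was large enough to be called. Antisense genes overlap HIF1A, and the strand setting of the counting is not stated. How reads in shared exons were treated, by adding them or leaving them out, could therefore affect the HIF1A level. Of its 4283 exon bases, HIF1A-AS1 shares 117 and HIF1A-AS2 shares 1221. HIF1A-AS1 had 1 to 13 counts per library and HIF1A-AS2 had 0 to 6.

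HIF1AN, the asparaginyl hydroxylase FIH, was moderately up-regulated. It was at 74.5, 84.2 and 74.3 CPM in sgCtl normoxia and at 119, 122 and 111 CPM in sgCtl hypoxia. Its log2 fold change was 0.6 ± 0.1 in sgCtl, 0.64 ± 0.1 in sgXIST7 and 0.56 ± 0.1 in sgXIST9, with adjusted p of 0.0001, 3.2e-05 and 0.00017 (edgeR), and these values lay between 0.52 and 0.75 under all alternatives run. The rise was about 1.5-fold in each clone (1.51, 1.56 and 1.47) and did not reach the size needed for a call.

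EGLN3, a prolyl hydroxylase with hypoxia-inducible expression in many cells, behaved differently between libraries. In sgCtl it was at 3.69, 4.1 and 4.31 CPM in normoxia and at 12.1, 13.9 and 2.75 CPM in hypoxia, from 193, 281 and 31 counts. Replicates 1 and 2 lay above the normoxia libraries and replicate 3 below them. In sgXIST7 it was at 1.3, 1.83 and 1.48 CPM in normoxia and 1.39, 1.09 and 0.518 CPM in hypoxia, and in sgXIST9 at 1.25, 0.85 and 1.46 against 2.23, 2.22 and 0.82 CPM. Replicate 3 was thus the lowest hypoxia library of every clone, at 0.211, 0.419 and 0.368 of the mean of replicates 1 and 2. The response did not pass the test in sgCtl (1.26 ± 0.45, adjusted p = 0.026), sgXIST7 (-0.56 ± 0.51, adjusted p = 0.36) or sgXIST9 (0.59 ± 0.5, adjusted p = 0.33; edgeR).

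Without the 3 libraries of hypoxia replicate 3, EGLN3 passed the test in sgCtl (1.69 ± 0.21, adjusted p = 3.1e-06) and sgXIST9 (0.91 ± 0.25, adjusted p = 0.0044), and not in sgXIST7 (-0.29 ± 0.26, adjusted p = 0.34). The difference in response between sgXIST7 and sgCtl was -1.82 ± 0.68 with all libraries (adjusted p = 0.096) and -1.98 ± 0.34 without these 3 (adjusted p = 0.00043). Leaving out sgCtl hypoxia replicate 3 alone gave 1.69 for the sgCtl response (adjusted p = 0.00035) and -2.23 for the difference (adjusted p = 0.0035). The low EGLN3 values of replicate 3 were not shared by the HIF targets as a group, whose levels in replicate 3 were a median of 1.3, 1.25 and 1.53 times the mean of replicates 1 and 2 in the 3 clones. Why replicate 3 differed was not tested.

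ARNT, ARNT2 and VHL did not pass the test in hypoxia. ARNT was at 97.7 to 105 CPM in sgCtl normoxia and 88.4 to 115 CPM in sgCtl hypoxia, a log2 fold change of -0.02 ± 0.1. VHL was at 99.6 to 118 and 101 to 121 CPM, a log2 fold change of 0.04 ± 0.12. ARNT2 was at 8.38 to 10.4 and 4.88 to 8.59 CPM, which gave -0.44 ± 0.2 (adjusted p = 0.075, edgeR). In sgXIST7 and sgXIST9 the 3 genes had log2 fold changes from -0.28 to 0.15.

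**Figure D2:**
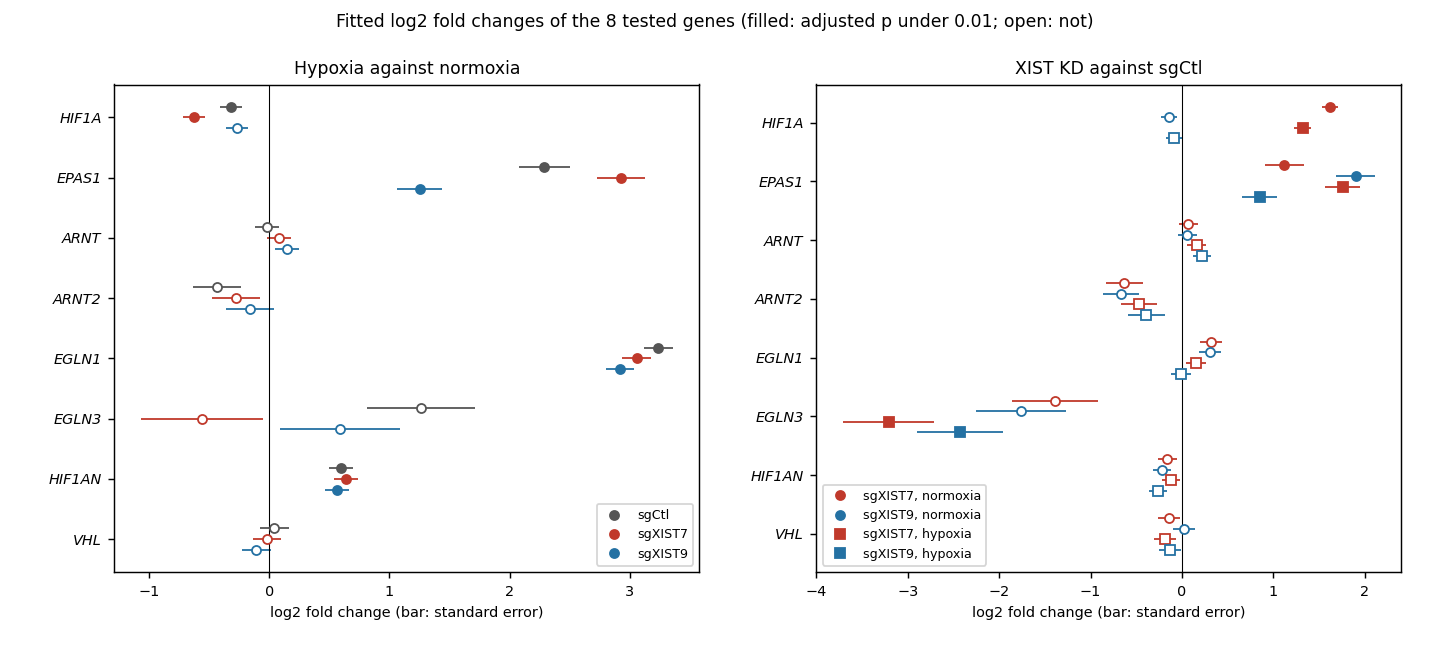
Fitted log2 fold changes of the 8 tested genes (x axis, bars are standard errors), left for hypoxia against normoxia in each clone and right for each XIST KD clone against sgCtl; filled symbols have adjusted p under 0.01. EGLN1 lay near 3 in all clones in hypoxia, while HIF1A was higher than in sgCtl in sgXIST7 and not in sgXIST9, and EGLN3 was lower in both under hypoxia.

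The second question was how the XIST KD clones differed from sgCtl cells. Under normoxia 2 of the 8 members passed the test in sgXIST7, HIF1A and EPAS1, both higher and both called, beside 13.5% of all genes past the test and 7.76% called. In sgXIST9, EPAS1 alone passed the test and was called, beside 13.1% and 7.7% of all genes. Under hypoxia 3 of 8 passed and were called in sgXIST7 (HIF1A and EPAS1 higher, EGLN3 lower), beside 27.6% and 14.0% of all genes. In sgXIST9, EPAS1 was higher and EGLN3 lower, with EGLN3 called, beside 17.9% and 9.53% of all genes. At each oxygen level, both comparisons share the sgCtl libraries of that level.

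HIF1A was about 3 times as abundant in the sgXIST7 clone as in the others. Against sgCtl cells the fit gave 1.62 ± 0.09 on the log2 scale in normoxia (3.08-fold, adjusted p = 6.3e-10) and 1.32 ± 0.09 in hypoxia (2.49-fold, adjusted p = 7.6e-09; edgeR). In sgXIST9 it was -0.14 ± 0.09 in normoxia and -0.09 ± 0.09 in hypoxia (adjusted p = 0.29 and 0.46). The 2 XIST KD clones differed from each other by 1.76 ± 0.09 in normoxia (adjusted p = 3.2e-10) and 1.41 ± 0.09 in hypoxia (adjusted p = 7.5e-09). Among the members, HIF1A alone passed the test between the clones in normoxia, where 4.97% of all genes passed and 3.4% were called. In hypoxia HIF1A and EPAS1 passed and HIF1A was called, where 8.43% of all genes passed and 4.46% were called.

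The genes around HIF1A were examined after these values were seen. Of 9 tested genes within 1000000 bases of HIF1A on chromosome 14, 4 were higher and 0 lower in sgXIST7 than in sgCtl under normoxia, and 7 were higher and 0 lower under hypoxia, where 13.5% and 27.6% of all tested genes passed in either direction. The median log2 fold change of the 9 was 0.7 in normoxia and 1.08 in hypoxia. Among them were PRKCH, a protein kinase C gene (0.7 ± 0.11 and 1.23 ± 0.11), SIX4, a homeobox gene (0.94 ± 0.08 and 1.12 ± 0.08) and SNAPC1, a subunit of the snRNA-activating complex (0.74 ± 0.13 and 1.08 ± 0.13). The noncoding LINC01303 was also higher, but it had 0 counts in all sgCtl libraries, so no fold is given. In sgXIST9 under normoxia PRKCH was lower (-1.11 ± 0.11) and the other 8 did not pass the test, beside 13.1% of all genes. Under hypoxia 2 were higher in sgXIST9 (SIX4 and LINC01303) and 1 lower (PRKCH), beside 17.9% of all genes past the test. Whether DNA copy number, chromatin or the clone set these levels was not tested. The genes that followed HIF1A most closely over the 18 libraries were LOXL1, a lysyl oxidase (Pearson r = 0.972), the noncoding DLGAP1-AS5 (r = 0.97) and CHST4, a sulfotransferase (r = 0.959). These r values are descriptions over libraries that share the split into clones.

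EPAS1 was higher in both XIST KD clones and at both oxygen levels. In normoxia the log2 fold change was 1.12 ± 0.21 in sgXIST7 (adjusted p = 0.00088) and 1.9 ± 0.21 in sgXIST9 (adjusted p = 3.3e-06), and no library overlapped with sgCtl. In hypoxia it was 1.76 ± 0.19 (adjusted p = 2e-06) and 0.85 ± 0.19 (adjusted p = 0.0023). The sgXIST9 value in hypoxia, which was not called, no longer passed the test with only the 2 groups compared (0.86, adjusted p = 0.04), without sgCtl hypoxia replicate 2 (0.77, adjusted p = 0.015), without sgXIST9 hypoxia replicate 3 (0.72, adjusted p = 0.013), or without the 3 libraries of replicate 3 (0.61 ± 0.19, adjusted p = 0.02; edgeR). Its order between the XIST KD clones turned with oxygen: sgXIST7 was below sgXIST9 in normoxia (-0.78 ± 0.19, adjusted p = 0.015, not past the test) and above it in hypoxia (0.91 ± 0.18, adjusted p = 0.0025). Without the 3 hypoxia libraries of replicate 3 the hypoxia difference was 1.11 ± 0.19 (adjusted p = 0.00044) and was called. It did not pass with only the 2 groups compared (0.92, adjusted p = 0.021), or without sgXIST7 hypoxia replicate 2 (0.75, adjusted p = 0.022), sgXIST9 hypoxia replicate 1 (0.89, adjusted p = 0.015) or sgXIST9 hypoxia replicate 2 (0.81, adjusted p = 0.018). The normoxia difference passed without sgXIST7 normoxia replicate 2 (-0.99, adjusted p = 0.0044). The genes with the most similar pattern were ZDHHC9, a palmitoyltransferase (Pearson r = 0.968), the noncoding LINC01599 (r = 0.964) and TMEM45A, a transmembrane protein gene (r = 0.964), over 18 libraries. Such r values describe libraries that share the split into clones and oxygen levels.

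EGLN3 was down-regulated in both XIST KD clones in hypoxia. Relative to sgCtl, its fitted value there was -3.21 ± 0.5 on the log2 scale in sgXIST7 (adjusted p = 8.7e-05) and -2.43 ± 0.47 in sgXIST9 (adjusted p = 0.00079), and no library overlapped. Without replicate 3 the values were -3.39 ± 0.26 (adjusted p = 4e-08) and -2.54 ± 0.25 (adjusted p = 6.4e-07; edgeR). In normoxia it was -1.39 ± 0.47 in sgXIST7 (adjusted p = 0.044) and -1.76 ± 0.49 in sgXIST9 (adjusted p = 0.015), again without overlap and not past the test. These low counts (6 to 49 per library in the XIST KD clones) limit the precision. The sgXIST9 value in hypoxia did not pass when only the 2 groups compared entered the test (-2.43, adjusted p = 0.043). Of 8 tested genes within 1000000 bases of EGLN3, also on chromosome 14, 4 were lower and 0 higher in sgXIST7 than in sgCtl in normoxia (CFL2, SNX6, BAZ1A and NPAS3), and 2 were lower and 0 higher in hypoxia (CFL2 and BAZ1A), beside 13.5% and 27.6% of all genes past the test. In sgXIST9, 2 were lower and 0 higher in normoxia (SNX6 and NPAS3) and in hypoxia (CFL2 and NPAS3), beside 13.1% and 17.9%. The same window was read around EPAS1 and EGLN1, with the same shares of all genes past the test. Around EPAS1, 1 of 13 tested genes was higher and 1 lower in each XIST KD clone in normoxia, 2 were higher and 1 lower in sgXIST7 hypoxia, and 3 were higher and 0 lower in sgXIST9 hypoxia. Around EGLN1, 1 of 14 was higher and 2 lower in sgXIST7 normoxia, 1 higher and 5 lower in sgXIST7 hypoxia, and 0 higher and 3 lower in sgXIST9 at each oxygen level. The genes with the pattern most like that of EGLN3 were HAS3, a hyaluronan synthase (Pearson r = 0.959), GRASP (r = 0.953) and the interleukin receptor gene IL6R (r = 0.948), over 18 libraries. Here too the libraries share the split into clones, and the r values are descriptions.

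The remaining members did not pass the test between clones with all libraries. ARNT2 was counted in normoxia at 5.32, 6.83 and 5.84 CPM in sgXIST7 and 5.62, 5.47 and 6.42 CPM in sgXIST9 against 9.06, 10.4 and 8.38 CPM in sgCtl. No library overlapped, yet the adjusted p was 0.029 and 0.022 (edgeR). For sgXIST7 against sgCtl in hypoxia, ARNT had 0.16 ± 0.1 (adjusted p = 0.21) and passed the test without the 3 libraries of replicate 3 (0.36 ± 0.09, adjusted p = 0.0042). ARNT and VHL had log2 fold changes from -0.19 to 0.22 and HIF1AN from -0.26 to -0.12 over the 4 comparisons.

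Put together per kilobase of exon, EPAS1 took a larger part of the HIF alpha mRNA in hypoxia than in normoxia in every clone. EPAS1 made up 1.25% ± 0.0478 (SD, n = 3) of the summed alpha subunit level in sgCtl normoxia and 7.24% ± 1.97 in hypoxia. It was 0.903% ± 0.296 and 9.55% ± 1.8 in sgXIST7, and 4.96% ± 0.153 and 13% ± 1.86 in sgXIST9. Normoxia and hypoxia libraries did not overlap in any clone (exact two-sided permutation test, p = 0.1 in each, the smallest that 3 against 3 allows). Between clones, sgXIST9 did not overlap with sgCtl at either oxygen level (p = 0.1 by the same exact test), while sgXIST7 and sgCtl overlapped at both (p = 0.3), as did sgXIST7 and sgXIST9 in hypoxia (p = 0.2). The ratio of HIF1A to EPAS1 was 79.2 ± 3.01 in sgCtl normoxia and 13.4 ± 3.41 in sgCtl hypoxia. It was 117 ± 32.5 against 9.71 ± 1.85 in the sgXIST7 cells, and 19.2 ± 0.618 against 6.82 ± 1.08 in the sgXIST9 cells. HIF1A remained the larger share in every library, at 85% or more.

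Among the EGLN genes the EGLN1 share was 82.8% ± 1.57 in sgCtl normoxia and 94.2% ± 0.593 and 94.8% ± 1.84 in sgXIST7 and sgXIST9 normoxia, and it reached 95.5% ± 2.59, 99.4% ± 0.27 and 98.9% ± 0.525 in hypoxia. EGLN2 counts enter this sum with the uncertainty given above. EGLN3 made up 15.7% ± 1.23 in sgCtl normoxia and 5.4% ± 0.575 and 4.23% ± 1.07 in the XIST KD clones (exact permutation p = 0.1 for each clone against sgCtl). The EGLN1 level relative to VHL was 0.348 ± 0.00377 in sgCtl normoxia and 3.21 ± 0.244 in sgCtl hypoxia. It was 0.484 ± 0.0953 against 4.1 ± 0.604 in the sgXIST7 cells, and 0.427 ± 0.028 against 3.5 ± 0.692 in the sgXIST9 cells. The HIF1AN level per HIF1A level was lowest in sgXIST7, at 0.0307 ± 0.00656 in normoxia, against 0.105 ± 0.00948 in sgCtl and 0.0993 ± 0.00379 in sgXIST9.

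**Figure D3:**
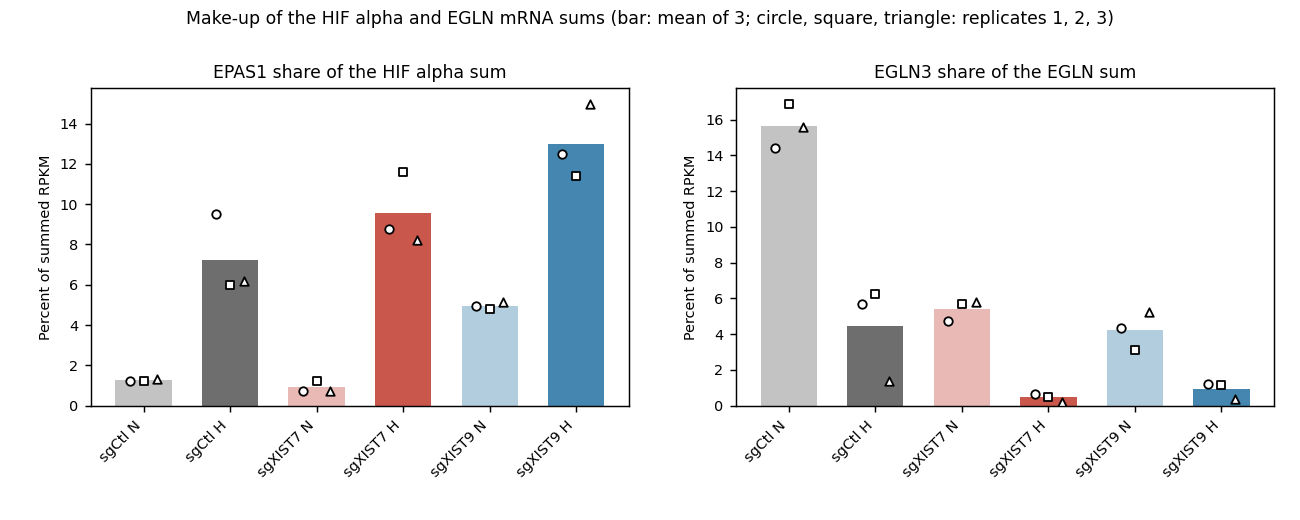
Left, EPAS1 as percent of the summed RPKM of HIF1A, EPAS1 and HIF3A, and right, EGLN3 as percent of the summed RPKM of EGLN1, EGLN2 and EGLN3 (y axes from 0), in the 6 groups (x axis; N normoxia, H hypoxia). Bars are means of 3 libraries and symbols are libraries. The EPAS1 share was 1.25% and 7.24% in sgCtl normoxia and hypoxia, and the EGLN3 share 15.7% and 4.43%. The level of EGLN3 itself was 4.03 ± 0.313 and 9.58 ± 6 CPM (SD) in these groups. A share also depends on the other genes of the sum, and the EGLN2 level is uncertain.

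Around the members, genes of the same pathway were counted from lists, and in bulk RNA fewer cells of a type and less RNA per cell cannot be told apart. Of the 4 other subunits of the VHL ligase (ELOB, ELOC, CUL2 and RBX1), 1 was lower in hypoxia in sgCtl and in sgXIST7 and 2 in sgXIST9, and 0 were higher, beside 37.6%, 46.7% and 42.1% of all genes past the test. CUL2, the cullin scaffold, was the gene lower in all 3 clones (-0.48 ± 0.09, adjusted p = 0.00029 in sgCtl). Of 11 tested regulators of HIF alpha, 3 were higher and 1 lower in sgCtl hypoxia, 3 higher and 2 lower in sgXIST7, and 3 higher and 2 lower in sgXIST9. These counts are near the 37.6%, 46.7% and 42.1% of all genes past the test and are no result about the list. CITED2, which competes with HIF for its coactivators, rose by 2.45 ± 0.2 in sgCtl, from 8.84 to 48.2 CPM (adjusted p = 6e-08). SIAH2, a ubiquitin ligase for EGLN proteins, rose by 2.19 ± 0.19 (adjusted p = 1.2e-07), and OS9 rose by 0.68 ± 0.09 (adjusted p = 6.2e-06). SENP1, a SUMO protease that acts on HIF1A, fell by 0.71 on the log2 scale (adjusted p = 0.0018), and it was also lower in both XIST KD clones than in sgCtl at both oxygen levels.

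Of 9 tested bHLH-PAS genes outside the HIF family, 2 were higher and 2 lower in sgCtl hypoxia, beside 37.6% of all genes past the test. ARNTL (BMAL1), a clock transcription factor, rose by 2.64 ± 0.32 and SIM2 by 0.71 ± 0.17, while ARNTL2 was lower (-1.2 ± 0.11) and so was NPAS3 (-2.95 ± 0.38). The direction of ARNTL, SIM2 and ARNTL2 was the same in the sgXIST7 and sgXIST9 cells, where all 3 passed the test. Between clones in normoxia, 3 of the 9 (NPAS3, NPAS2 and AHR) were lower in both XIST KD clones than in sgCtl, and 0 were higher. Of all tested genes, 13.5% passed the test in sgXIST7 and 13.1% in sgXIST9. NPAS3 lies beside EGLN3 on chromosome 14.

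The mRNA levels of 25 known HIF targets were also read, and HIF activity itself was not measured. In hypoxia 24 of 25 were higher in sgCtl, 24 in sgXIST7 and 25 in sgXIST9, and 0 were lower. Of all tested genes, 37.6%, 46.7% and 42.1% passed the test in either direction. The target medians were 3.47, 3.41 and 3.14 on the log2 scale, beside 0.02, 0.01 and 0.09 for all genes. Among the largest in sgCtl were ANKRD37 (5.92 ± 0.39), NDRG1 (5.17 ± 0.21) and PFKFB4, a glycolytic regulator (5.16 ± 0.32). CA9, a carbonic anhydrase, had 1 count over the 3 sgCtl normoxia libraries and 6 to 33 counts per library in sgCtl hypoxia, so no fold is given. ADM, which encodes the vasodilator adrenomedullin, was the sgCtl exception, at 287 CPM in normoxia and 324 CPM in hypoxia. It was at 8.14 and 7 CPM in normoxia in sgXIST7 and sgXIST9 and at 188 and 107 CPM in hypoxia, so that its response differed from that of sgCtl by 4.36 ± 0.36 (adjusted p = 5e-06) and 3.76 ± 0.36 (adjusted p = 3.7e-05; edgeR). HK2, a hexokinase, responded less in sgXIST9 than in sgCtl (-1.49 ± 0.25, adjusted p = 0.0031), and its difference in sgXIST7 was -1.15 ± 0.25 (adjusted p = 0.011).

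The 25 targets were also counted between clones. In sgXIST7 normoxia 5 were higher and 1 lower than in sgCtl, with a median of 0.35 beside -0.01 for all genes, of which 13.5% passed. In sgXIST7 hypoxia 3 were higher and 0 lower, a smaller share than the 27.6% of all genes, with a median of 0.32 beside -0.02. In sgXIST9, 2 were higher and 3 lower in normoxia (median 0, beside 13.1% of all genes past the test) and 1 higher and 4 lower in hypoxia (median -0.12, beside 17.9%). Whether HIF1A mRNA had a part in these values was not tested. Against each other, 3 targets were higher in sgXIST7 than in sgXIST9 in normoxia (DDIT4, NDRG1 and BHLHE40), and 0 were lower. In hypoxia 3 were higher (SLC2A1, HK2 and BHLHE40) and 0 lower. All 3 were called in normoxia and 0 in hypoxia. Of all tested genes, 4.97% passed the test in normoxia and 8.43% in hypoxia. The summed target level was 4710 to 5070 CPM in sgCtl normoxia, 6480 to 6850 in sgXIST7 and 5430 to 5590 in sgXIST9. Much of that sum was ENO1, a glycolytic enzyme looked at after its values were seen, with means of 2480, 3830 and 3280 CPM. In hypoxia sgCtl overlapped with both XIST KD clones, at 15100 to 17300 CPM in sgCtl, 16800 to 20800 in sgXIST7 and 13800 to 16800 in sgXIST9.

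**Figure D4:**
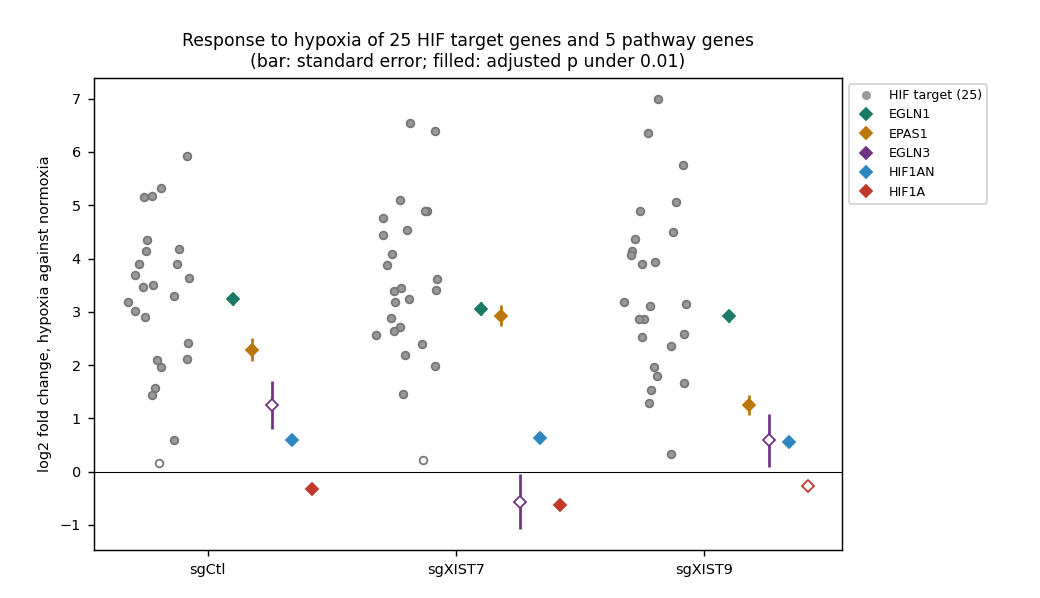
Log2 fold change in hypoxia (y axis) in each clone (x axis) for 25 HIF target genes (gray circles, spread sideways for legibility) and 5 members (diamonds, bars are standard errors); filled symbols have adjusted p under 0.01. EGLN1 lay near the target medians of 3.47, 3.41 and 3.14, EPAS1 was lower in sgXIST9 (1.25), and HIF1A was below 0.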

How the data were processed

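RNA-seq libraries (18, 6 groups of 3) came from OVCAR3-KRAB clonal cells. Per the study's methods the authors depleted ribosomal RNA, made stranded paired-end libraries, used Trimmomatic for trimming and hisat2 for alignment (hg38), and counted reads per gene with featureCounts. Versions, annotation and strand setting are not given in the sources used here. The deposited values are raw counts per gene made by the authors, 1 column per library; 2 incomplete lines were left out. Depth was 11794375 to 24906936 counts, and a limit of 3 counts is counting error only.

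Counts were tested with edgeR 4.0.16 (limma 3.58.1, R 4.3.3): TMM scaling, filterByExpr (minimum count 10, total 15; 14938 genes), robust quasi-likelihood fit of all 6 groups, prior count 0.125, Benjamini-Hochberg over all genes. The test was tried out on simulated data. DESeq2 1.42.0, other scalings and filters, a replicate block, only the groups compared, an adjusted p of 0.05 and leaving out libraries were alternatives. CPM is TMM-scaled and RPKM is CPM per kilobase of exon. Promoters came from RefSeq (8 of 10 members matched).

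Members, lists and tests were chosen with earlier results of these data known. All 10 members and XIST were named, with up to 4 genes of each list by the size of the sgCtl response, list genes whose response differed between clones, and the 3 genes most like each called member (Pearson r of log2 CPM, prior count 2). Genes near HIF1A, EGLN3, EPAS1 and EGLN1 were added after the values were seen. By correlated deviations, each replicate of sgCtl normoxia correlated best with its own number in sgXIST7 normoxia (0.148, 0.379 and 0.195). The same held for sgCtl normoxia with sgCtl hypoxia (0.102, 0.0928 and 0.109). Between sgCtl and sgXIST9 in hypoxia (0.197, 0.52 and 0.566), replicate 1 did not correlate best with its own number. The block moved no member across the test threshold in these comparisons.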

Additional observations from a re-analysis of the deposited data

Results flagged for a closer look

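The response of EPAS1 to hypoxia differed between the 2 XIST KD clones, by a test of the difference itself: sgXIST7 minus sgXIST9 was 1.69 ± 0.27 on the log2 scale (adjusted p = 0.006, edgeR). EPAS1 was at 8.17 ± 2.02 CPM (SD, n = 3) in sgXIST7 normoxia and 62.2 ± 11.5 CPM in sgXIST7 hypoxia, and at 14 ± 0.341 and 33.2 ± 5.45 CPM in the sgXIST9 cells. Over 20 alternatives the value lay between 1.53 and 1.9 and the largest adjusted p was 0.026. It missed the threshold without sgXIST7 hypoxia replicate 2 (1.53, adjusted p = 0.025), sgXIST9 hypoxia replicate 1 (1.67, 0.026) or 2 (1.59, 0.021), sgXIST7 normoxia replicate 1 (1.6, 0.019) or 3 (1.58, 0.019), and sgXIST9 normoxia replicate 1 (1.68, 0.021), 2 (1.71, 0.022) or 3 (1.68, 0.024). No group held the 4 libraries needed to look for single libraries far from the rest of their group.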

How the results depend on the processing

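The direction of each member fold change past the test held in all alternatives run: 450 values stayed on the same side of the threshold, 25 missed it and 23 passed it anew. Counts of members past the test moved by more than 1.5 times as follows. At an adjusted p under 0.05 there were 4 for sgXIST7 and 3 for sgXIST9 against sgCtl in normoxia, 2 between the XIST KD clones in normoxia and 1 for the difference in response of sgXIST9 and sgCtl. DESeq2 gave 3 for sgXIST9 against sgCtl in normoxia (EPAS1, EGLN3 and ARNT2), 2 between the clones in normoxia and 1 for the difference in response of sgXIST9 and sgCtl, and no filter gave 2 between the clones in normoxia. With only the groups compared there were 4 for sgXIST9 in normoxia, 0 for sgXIST9 in hypoxia, 1 between the clones in hypoxia and 0 for the difference in response between them. Without the 3 hypoxia libraries of replicate 3 there were 1 for sgXIST9 in hypoxia and 1 for each difference in response against sgCtl (EGLN3 and EPAS1). Leaving out 1 library at a time gave 1 to 2 for sgXIST9 against sgCtl in hypoxia and between the clones at either oxygen level, and 0 to 1 for each of the 3 differences in response. The replicate block gave 2 for sgXIST9 against sgCtl in normoxia, adding EGLN3 (-1.78, adjusted p = 0.0084), and moved none of the other 11 counts; the normoxia libraries of sgXIST9 and sgCtl shared only a number (correlations 0.0262, 0.0413 and 0.0818), and replicate 1 did not correlate best with its own number. HIF1A in sgCtl hypoxia also missed the threshold with no filter (-0.33, adjusted p = 0.018) and with only the groups compared (-0.29, adjusted p = 0.059). By CPM, without division by exon length, the ratio of HIF1A to EPAS1 was 65.8 in sgCtl normoxia. The causes were not tested. Low counts limit the precision for EGLN3 (6 to 281 per library), ARNT2 (48 to 146) and EPAS1 in sgCtl normoxia (46 to 69), and EGLN2 and HIF3A could not be judged.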
